A study of Mus musculus with 6 samples.

Results

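Genes of the Reelin pathway and of Cajal-Retzius cells were examined in cortical cells with and without knockdown of Ybx1. The 9 genes were chosen by symbol from the 17920 listed, 4 as the ligand and Cajal-Retzius markers (Reln, Trp73, Calb2 and Lhx5) and 5 as receptors and adaptors (Vldlr, Lrp8, Dab1, Crk and Crkl).

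Reelin is a large secreted glycoprotein that guides the layering of the cerebral cortex. It is made in the embryo chiefly by Cajal-Retzius cells, early-born neurons of the marginal zone, and it binds the lipoprotein receptors Vldlr and ApoER2 (encoded by Lrp8) on migrating neurons. Receptor binding leads Src family kinases to phosphorylate the adaptor Dab1, which then recruits the adaptors Crk and Crkl and through them the Rap1 pathway.

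The cells were taken from mouse cortex at E13.5. The labels call them brain of genotype WT or KD and the series record mentions deleting the gene, but the study's methods describe dissociated cortical cells that were cultured, infected with lentivirus carrying a short hairpin RNA (shRNA) and selected with puromycin, an antibiotic that kills uninfected cells. The WT group (3 libraries) carried a control hairpin and the KD group (3 libraries) a hairpin against Ybx1, an RNA-binding protein that reads 5-methylcytosine in mRNA, so virus and selection were common to both. Which Ybx1 hairpin was used is not given in the sources used here. The study's results section describes these cultures as embryonic neural stem cells, and a figure legend as cortical progenitors. The study's methods speak of independent replicate experiments and the labels do not say what separated the replicates, so P values measure the spread between these libraries.

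Library totals lay between 16294635 and 16497505 estimated counts. Ybx1 was at 629 ± 21.0 CPM (normalised counts scaled to a common library total; mean ± SD, n = 3 libraries) in WT and at 116 ± 36.8 CPM in KD, with no overlap between the libraries. The replicate numbers paired the libraries, since WT and KD libraries with the same number deviated together from their group means, and values from a fit that takes replicate number as a block are therefore given where they changed a call. Y-linked transcripts (4 genes) summed to 14.1 and 36 estimated counts in WT and KD replicate 2. They summed to 1218 to 1899 in the other 4 libraries, so the second pair stands apart in these transcripts. By chi-square per degree of freedom over the counts, replicates 1 and 3 differed the most, at 9.05 in WT and 8.01 in KD. The calls among the 9 genes and the totals over all genes are also given without the second pair. No other pair was left out in fits without the block, so the drop in calls has no comparison. Calls of the other named genes were not examined without this pair. Of 13669 genes tested with edgeR's quasi-likelihood test (Benjamini-Hochberg adjusted P under 0.05), 24% differed between KD and WT, 12% higher and 11.9% lower (50.2% of calls higher, but 65.9% on log2(TPM + 1)). With the replicate block, the share was 36.6%, 18.6% higher and 18.1% lower. Without the block, 1646 genes were higher and 1631 lower, and 135 and 93 when the second pair was left out. All 9 genes passed the filter on low counts, and their estimated counts were whole numbers in all 6 libraries.

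To compare the genes with each other, TPM values, which are divided by transcript length and scaled to the same total in each library, were used. Reln was the most abundant of the 9 in WT, at 76.0 ± 7.96 TPM (n = 3), followed by Lrp8 at 58.3 ± 5.28, Crk at 52.6 ± 0.983, Dab1 at 45.8 ± 7.73, Crkl at 41.2 ± 2.86, Calb2 at 30.2 ± 7.65 and Vldlr at 24.4 ± 2.34 TPM. The transcription factor genes Trp73, at 5.19 ± 0.626 TPM, and Lhx5, at 3.40 ± 0.530 TPM, were far lower. Among neighbours in this order, the WT libraries overlapped for Crk and Dab1, for Dab1 and Crkl, and for Calb2 and Vldlr, and they were separate for the other pairs. In KD the order was the same, but the libraries of Reln (74.2 ± 8.76 TPM) and Lrp8 (70.6 ± 1.71 TPM) then overlapped, as did those of Crkl (44.9 ± 3.32 TPM) and Calb2 (39.2 ± 11.3 TPM). Conversely, the KD libraries of Crk and Dab1, and of Calb2 and Vldlr, were separate. Gene positions below are whole gene spans in the GENCODE M21 annotation of GRCm38. Reln ranked 2502 by WT TPM among all listed genes, and Lhx5 ranked 11581.

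Without the replicate block 1 of the 9 genes passed the threshold, Lrp8, which was higher in KD, against 24% of all genes tested. None was lower, also at an unadjusted P of 0.05, and DESeq2 and limma-voom likewise called 1 higher and 0 lower. With the replicate block 5 of 9 passed, against 36.6% of all genes: Lrp8, Dab1, Crk and Calb2 were higher and Lhx5 was lower. In the receptor and adaptor group the median log2 fold change was 0.14, and in the ligand and Cajal-Retzius group it was -0.16. Over all genes tested the median was -0.0013. Both groups held genes of both directions, from -0.06 (Vldlr) to 0.23 (Lrp8) and from -0.60 (Lhx5) to 0.32 (Calb2). For 2 of the 9 genes, Lrp8 and Crk, all KD libraries were above all WT libraries, where 21% of all genes tested had KD above WT in this way and 41.6% were separate in either direction. In bulk libraries, fewer cells of a type and less RNA per cell cannot be told apart.

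**Figure D1:**
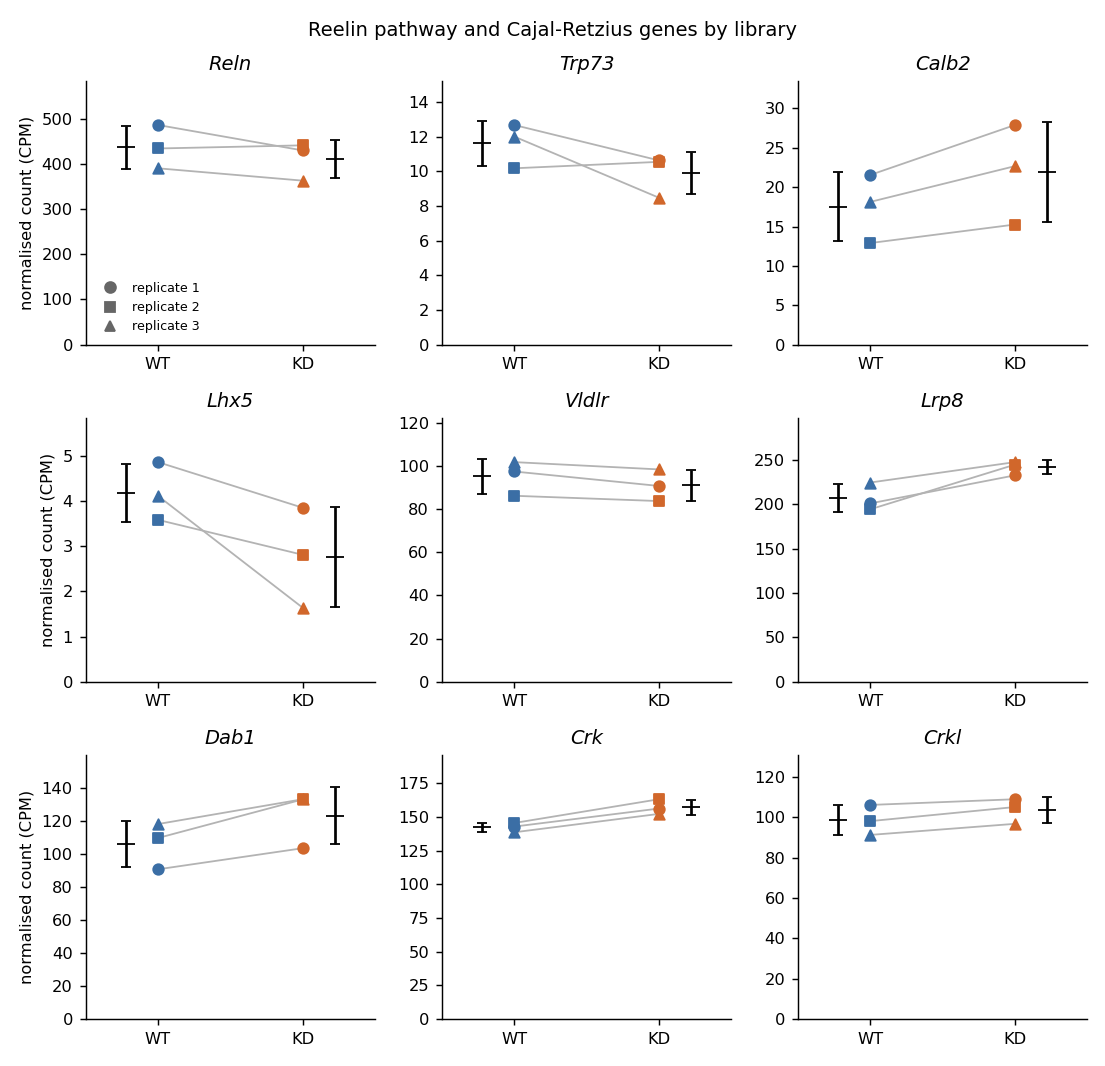
Normalised counts (CPM, y axis from 0) of each gene in the WT (blue) and KD (orange) libraries, with a grey line joining libraries of the same replicate number and a black bar for the mean ± SD of 3 libraries. The KD points of Lrp8 and Crk lie above all WT points, and for Calb2 and Dab1 KD is above WT within each replicate number while the groups overlap.

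Reln (gene ID 19699; chr5:21884454-22344702, minus strand), which encodes the ligand, did not pass the threshold. It was at 486, 434 and 390 CPM in WT replicates 1, 2 and 3 and at 430, 441 and 363 CPM in KD replicates 1, 2 and 3. The groups overlapped, with WT replicate 1 above all KD libraries and KD replicate 3 below all WT libraries, and replicate 3 was the lowest library of both. On the log2 scale the difference was -0.09 (SE 0.09, 95% interval -0.30 to 0.12, adjusted P = 0.532), and with the replicate block adjusted P was 0.173. KD was lower than WT in replicates 1 and 3 and slightly higher in replicate 2. Leaving out WT replicate 1 or KD replicate 3 brought the log2 fold change to -0.003, and leaving out WT replicate 3 brought it to -0.16.

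The genes whose pattern over the 6 libraries was most like that of Reln were Msantd4, Steap2 and Hlcs. Each gene was centred on its own mean log2 CPM, and the root mean square difference from Reln was 0.0386, 0.0442 and 0.0459 on the log2 scale. They were the nearest of 11438 genes with a mean of at least 5 CPM. With 6 libraries such a likeness describes these libraries and no more.

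Trp73 (gene ID 22062; chr4:154056253-154140208, minus strand) encodes p73, a p53 family transcription factor that Cajal-Retzius cells of the cortical hem express. Its values were 12.7, 10.2 and 12.02 CPM in WT and 10.6, 10.6 and 8.49 CPM in KD replicates 1, 2 and 3. The highest KD libraries lay above WT replicate 2, so the groups overlapped. Its log2 fold change of -0.23 (SE 0.13, 95% interval -0.53 to 0.07) did not pass with or without the replicate block (adjusted P = 0.144 and 0.231). Of the p53 family, Trp53 was at 78.5 TPM in WT and 87.3 TPM in KD (log2 fold change 0.09, adjusted P = 0.29), and Trp63 was too low to be tested.

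Lhx5 (gene ID 16873; chr5:120431699-120441223, plus strand), a LIM homeobox gene of Cajal-Retzius precursors in the hem, was the least expressed of the 9 genes. It had 80, 58 and 66 estimated counts in WT and 64, 46 and 27 in KD replicates 1, 2 and 3, or 4.86, 3.58 and 4.11 CPM against 3.85, 2.81 and 1.64 CPM. KD was below WT in all 3 pairs, most of all in the third, but KD replicate 1 lay above WT replicate 2. Its log2 fold change of -0.60 (SE 0.28, 95% interval -1.22 to 0.03) did not pass (adjusted P = 0.148). With the replicate block it did, at -0.61 (SE 0.20, adjusted P = 0.0268). That call was lost when the third pair was left out (-0.34, adjusted P = 0.195) and held without the first (-0.80, adjusted P = 0.00819) or the second pair (-0.75, adjusted P = 0.00764). Without the block, Lhx5 passed when KD replicate 1 was left out (-0.91, adjusted P = 0.0485); over all its alternatives the adjusted P ran from 0.00764 to 0.33.

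Calb2 (gene ID 12308; chr8:110137502-110168210, minus strand) encodes calretinin, a calcium-binding protein of Cajal-Retzius cells and of some interneurons. It was at 21.5, 12.9 and 18.1 CPM in WT and at 27.9, 15.3 and 22.7 CPM in KD replicates 1, 2 and 3. Replicate 1 was the highest and replicate 2 the lowest in both groups, so the groups overlapped although KD was above WT in all 3 pairs. Its log2 fold change was 0.32, with SE 0.23, a 95% interval of -0.20 to 0.84 and adjusted P = 0.336 without the replicate block and SE 0.08 and adjusted P = 0.00497 with it. The call with the block was lost without the first pair (0.29, adjusted P = 0.0607). The distance between the highest and lowest pair, 0.81 on the log2 scale, exceeded the KD difference. Calb1, which encodes the related protein calbindin, fell from 83.7 to 49.3 CPM (-0.76, SE 0.11, adjusted P = 0.00254). It was the 1 call, lower, among 4 tested relatives of the 9 genes, of which 1 was higher and 2 lower with the block.

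Other genes known in Cajal-Retzius cells were examined as a list of 13. The counts in this and the other lists stand beside 12% higher and 11.9% lower of all genes tested. With the replicate block these shares were 18.6% and 18.1%. None was higher and 2 were lower past the threshold, Ndnf, which encodes a secreted neurotrophic factor (26.9 to 19.8 CPM, log2 fold change -0.45, adjusted P = 0.0145), and the transcription factor gene Nhlh2 (11.9 to 9.33 CPM, -0.36, adjusted P = 0.0406). The median of the list was -0.05. With the replicate block 5 were higher and 3 were lower. Lhx1, a relative of Lhx5, was at 3.37 CPM in WT against 2.30 CPM in KD with no overlap (-0.55, adjusted P = 0.0833, and 0.0344 with the block). Cxcr4, the receptor for the meningeal chemokine Cxcl12, was at 8.89 CPM in WT against 12.5 CPM in KD (0.49, adjusted P = 0.105, and 0.0127 with the block). Ebf2 was near 1 CPM in both groups (adjusted P = 0.728). Tbr1, which deep-layer neurons also express, was at 250.3 and 276 CPM (0.14, adjusted P = 0.262, and 0.0483 with the block).

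Reln and calretinin are also made by interneurons, so markers of GABAergic neurons were set beside them. All 12 markers passed the filter, and their summed level lay between 4242 and 7168 TPM in WT and between 3827 and 5656 TPM in KD. Most of this sum was somatostatin (Sst), at 5449, 3854 and 2950 TPM in WT and 3614, 2991 and 2194 TPM in KD replicates 1, 2 and 3. Past the threshold 4 were higher and none was lower: Dlx2 (30.5 to 71.5 CPM, log2 fold change 1.23, adjusted P = 9.59e-04), Sp8 (0.60), Npy (0.39) and Prox1 (0.31). With the replicate block 5 were higher and 3 lower. The 3 lower were Sst (637 and 434 CPM, -0.55, adjusted P = 0.108, and 2.35e-06 with the block), the vesicular GABA transporter gene Slc32a1 (148 and 116 CPM, -0.36, adjusted P = 0.22, and 2.3e-04 with the block), both named after their values were seen, and Gad1. Gad1, which encodes a GABA-synthesising enzyme, was at 325 CPM in WT against 273 CPM in KD (-0.25, adjusted P = 0.351, and 0.00165 with the block), and Gad2 (0.07, adjusted P = 0.821) and Lhx6 (-0.08, adjusted P = 0.821) did not pass in either fit. Whether the GABAergic cells had a part in the values of Reln and Calb2 was not tested.

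The remaining markers show what else the libraries held. Cortical excitatory lineage markers (12 genes) summed to between 2251 and 3097 TPM over all libraries, but most of this was Tubb3, a tubulin gene of neurons in general, at 1601 to 2022 TPM. Of the 12 genes, 4 were higher and 0 lower in KD, and 6 higher and 1 lower under the replicate block. Among the 4 were the intermediate progenitor gene Eomes (11.2 to 33.2 CPM, log2 fold change 1.57), Pax6 (0.61) of radial glia and the neuronal gene Neurod2 (0.46), with adjusted P from 0.00813 to 0.0185. Oligodendrocyte lineage markers summed to between 303 and 408 TPM in WT and between 260 and 328 TPM in KD, and 1 of 4, Olig1, was lower (-0.54, adjusted P = 0.0105), or 3 of 4 with the block. Astrocyte markers summed to between 50.2 and 61.2 TPM over all libraries, with none of the 3 tested past the threshold. Most of this was Aldh1l1, at 36.9 to 52.7 TPM, and Gfap, Aqp4 and S100b were each at most at 8 TPM. Markers of meningeal fibroblasts (at most 23.9 TPM in sum), endothelium (at most 1.56 TPM) and microglia (at most 6.28 TPM) were low in all 6 libraries. None of those tested passed except 1 gene of the meningeal list, Cxcl12, with the block (adjusted P = 0.0211, named after its value was seen). Most of the meningeal sum was Cxcl12, at 11.1 to 18.7 TPM. Dcn was at 1.33 to 5.12 TPM, and Col1a1, Col1a2, Col3a1, Lum and Foxc1 were each at most at 0.62 TPM. Markers of choroid plexus and cortical hem, the source of many Cajal-Retzius cells, summed to between 7.26 and 9.09 TPM in WT and between 11.8 and 13.2 TPM in KD. Most of this was Rspo3 (5.27 to 7.75 TPM in WT and 9.31 to 11.8 TPM in KD), and each of the other genes was at most at 1.38 TPM in any library. Of these 8 genes 2 could be tested, and 1 of them, Rspo3, was higher in KD (7.23 to 11.0 CPM, 0.60, adjusted P = 0.0305).

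Of the genes for the Reelin receptors, Lrp8 passed the threshold and Vldlr did not. Lrp8 (gene ID 16975; chr4:107802261-107876840, plus strand), whose product is the receptor ApoER2, was at 201, 194 and 225 CPM in WT and at 233, 245 and 248 CPM in KD replicates 1, 2 and 3. All KD libraries lay above all WT libraries. The difference was 0.23 on the log2 scale (SE 0.06, 95% interval 0.09 to 0.36, adjusted P = 0.0281), a 1.17-fold rise, and 0.23 with the replicate block (adjusted P = 0.00246). The call without the block was lost when WT replicate 1 (adjusted P = 0.0775), WT replicate 2 (0.108), KD replicate 2 (0.0885), KD replicate 3 (0.0715) or the second pair (0.259) was left out. Across its alternatives the adjusted P ran from 5.51e-04 to 0.259 and the fold change from 0.17 to 0.29 on the log2 scale. With the block, the call held without any one pair.

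Vldlr (gene ID 22359; chr19:27216484-27254231, plus strand) encodes the other receptor. It was at 97.4, 86.2 and 102 CPM in WT and at 90.7, 83.7 and 98.4 CPM in KD replicates 1, 2 and 3. KD was slightly below WT in all 3 pairs, while replicate 2 was the lowest and replicate 3 the highest library of both groups. The difference was -0.06 on the log2 scale (SE 0.08, 95% interval -0.24 to 0.11, adjusted P = 0.588), and it did not pass with the replicate block (adjusted P = 0.341).

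Because a ratio of 2 genes within a library does not depend on how libraries are scaled, the receptors were also compared in this way. The ratio of Vldlr to Lrp8 TPM was 0.440, 0.404 and 0.412 in WT and 0.353, 0.313 and 0.362 in KD replicates 1, 2 and 3. All KD ratios were below all WT ratios, with means of 0.418 ± 0.0192 and 0.343 ± 0.0262 (SD, n = 3). The exact permutation test (two-sided) gave P = 0.1 for the log2 difference of -0.29. This P is the smallest value that 3 against 3 libraries allow. The ratio is made of the same values as the log2 fold changes of Lrp8 (0.23) and Vldlr (-0.06), so it is not a separate observation. How often ratios of other genes separate in this way was not computed. The ratio of Crk to Crkl was 1.28 ± 0.110 in WT and 1.35 ± 0.0751 in KD, and the libraries overlapped (log2 difference 0.08, exact permutation P = 0.5).

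**Figure D2:**
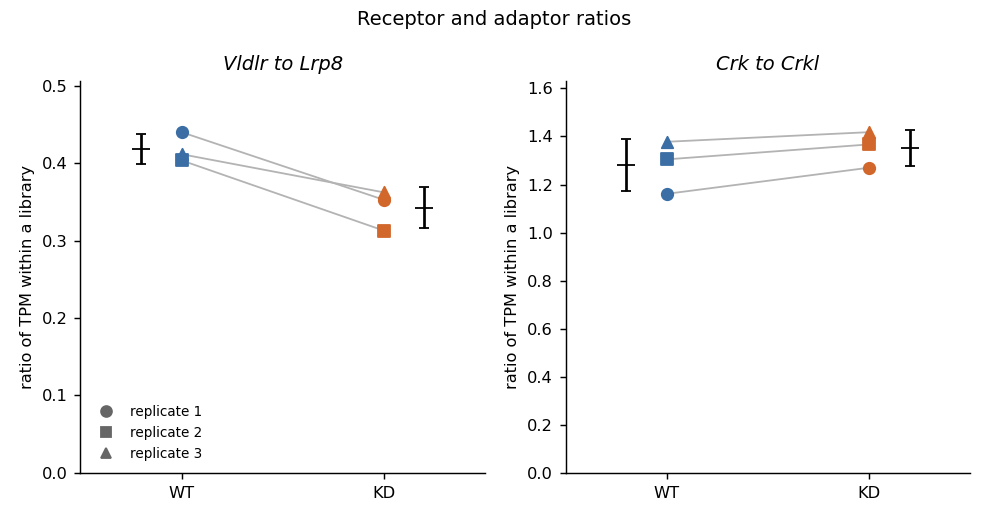
Ratio of Vldlr to Lrp8 TPM (left) and of Crk to Crkl TPM (right) within each library, by group, with grey lines joining the same replicate number and black bars for the mean ± SD of 3 libraries. The receptor ratio is 0.404 or more in every WT library and 0.362 or less in every KD library, whereas the adaptor ratio overlaps between groups.

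Other genes of the lipoprotein receptor family and of ligands that share these receptors moved in both directions. Of 12 genes, 4 were higher and 2 lower in KD (5 and 3 with the replicate block), with a median log2 fold change of 0.14. Sorl1, a sorting receptor, rose from 61.3 to 104 CPM (0.77, adjusted P = 3.86e-04). Lrp4 (0.71, adjusted P = 0.0334) and Lrp12 (0.33, adjusted P = 0.00639) were also higher. Apoe, a lipoprotein ligand of ApoER2 and Vldlr, was at 249.99 and 204 CPM and passed only with the replicate block (-0.29, adjusted P = 0.35 without the block and 0.00524 with it).

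Dab1 (gene ID 13131; chr4:103619359-104744844, plus strand) encodes the adaptor that both receptors share. It was at 90.6, 110 and 118 CPM in WT and at 103, 133 and 133 CPM in KD replicates 1, 2 and 3. Replicate 1 was the lowest of both groups and KD replicate 1 lay below WT replicates 2 and 3, but KD exceeded WT in all 3 pairs, by 0.19, 0.28 and 0.17 on the log2 scale. The log2 fold change was 0.22 (SE 0.12, 95% interval -0.05 to 0.48, adjusted P = 0.212) without the replicate block and 0.21 (SE 0.05, adjusted P = 0.00394) with it. Without the second pair the blocked value was 0.18 (adjusted P = 0.0588).

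Crk (gene ID 12928; chr11:75679259-75706908, plus strand), an SH2 and SH3 adaptor that binds phosphorylated Dab1, was at 143, 146 and 139 CPM in WT and at 156, 163 and 152 CPM in KD replicates 1, 2 and 3. It varied the least of the 9 genes between pairs (0.08 on the log2 scale), and the KD libraries lay above the WT libraries. The log2 fold change of 0.14 (SE 0.05, 95% interval 0.04 to 0.25) missed the threshold without the replicate block (adjusted P = 0.0568) and passed with it (adjusted P = 0.0263). The blocked call was lost without the first pair (adjusted P = 0.114) or the second (adjusted P = 0.172). Crk also passed with library totals in place of TMM scaling (0.17, adjusted P = 0.0378) and on log2(TPM + 1) (0.20, adjusted P = 0.0244).

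Crkl (gene ID 12929; chr16:17451987-17487434, plus strand), the paralog of Crk, was at 106, 98.1 and 91.2 CPM in WT and at 109, 105 and 96.7 CPM in KD replicates 1, 2 and 3. Replicate 1 was the highest and replicate 3 the lowest of both groups, and KD was above WT in all 3 pairs by at most 0.10 on the log2 scale. Its log2 fold change of 0.07 (SE 0.07, 95% interval -0.08 to 0.23) did not pass without the block (adjusted P = 0.481) or with it (adjusted P = 0.268).

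**Figure D3:**
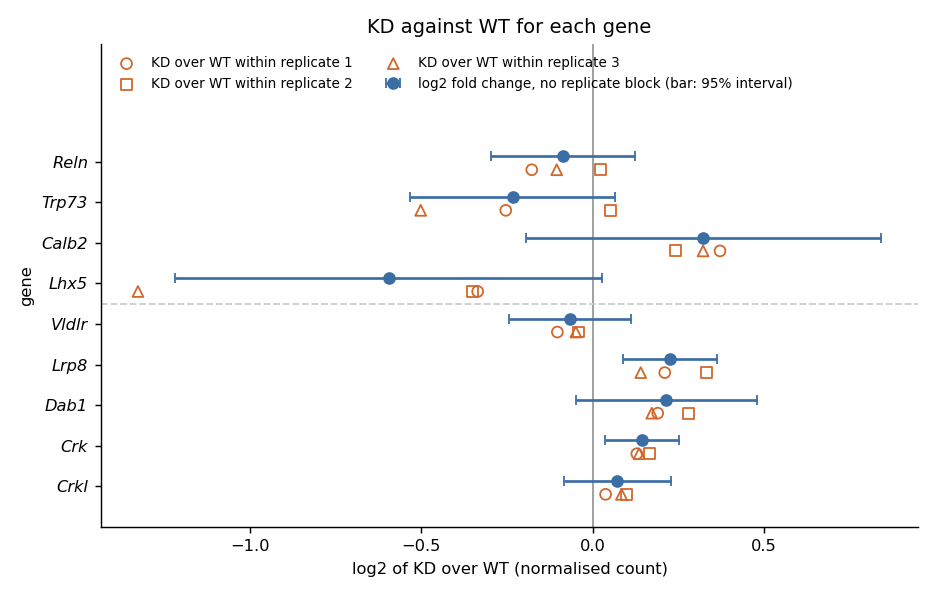
Log2 ratio of KD over WT for each gene on the x axis, as the log2 fold change without the replicate block with its 95% interval (blue) and as the ratio within each replicate number (orange), with a dashed line between the ligand and Cajal-Retzius markers above and the receptors and adaptors below. The intervals of Lrp8 and Crk lie above 0, and the within-replicate ratios of Dab1 (0.17 to 0.28) spread less than its interval.

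The libraries of one replicate number resembled each other in most of the 9 genes. The highest library had the same number in both groups for 8 of the 9 genes and the lowest for 6. The distance between the highest and lowest pair exceeded the mean KD difference for 6 genes. KD was higher in all 3 pairs for 5 genes (Calb2, Lrp8, Dab1, Crk and Crkl), lower in all 3 for 2 (Lhx5 and Vldlr), and mixed for Reln and Trp73. How common these patterns are among all genes tested was not computed, so the counts only describe the 9 genes.

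The estimated count, the FPKM value and the library total together give the effective transcript length that was used for a gene, and this length moves when reads are assigned to longer or shorter isoforms. It was computed for the 7 genes with an FPKM of at least 10 in every library. For Reln it varied by 0.075% of its mean over the 6 libraries, and for Calb2, Vldlr, Lrp8 and Crkl by at most 0.801%. For Dab1 it varied by 9.02% and for Crk by 5.25%. The effective length of Dab1 was 4767, 4615 and 4467 bases in WT and 4892, 4876 and 4623 bases in KD replicates 1, 2 and 3. It was longer in KD in all 3 pairs, by 2.61%, 5.64% and 3.48%, and the groups overlapped. The KD over WT ratio of the mean lengths, 3.90% above 1, exceeded that of 99.4% of 6748 genes with such an FPKM, whose central 95% of KD over WT ratios ran from 0.974 to 1.02. For Crk the length differed by -0.69% between groups, and replicate 3 was the lowest of both. No test was run on these lengths.

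**Figure D4:**
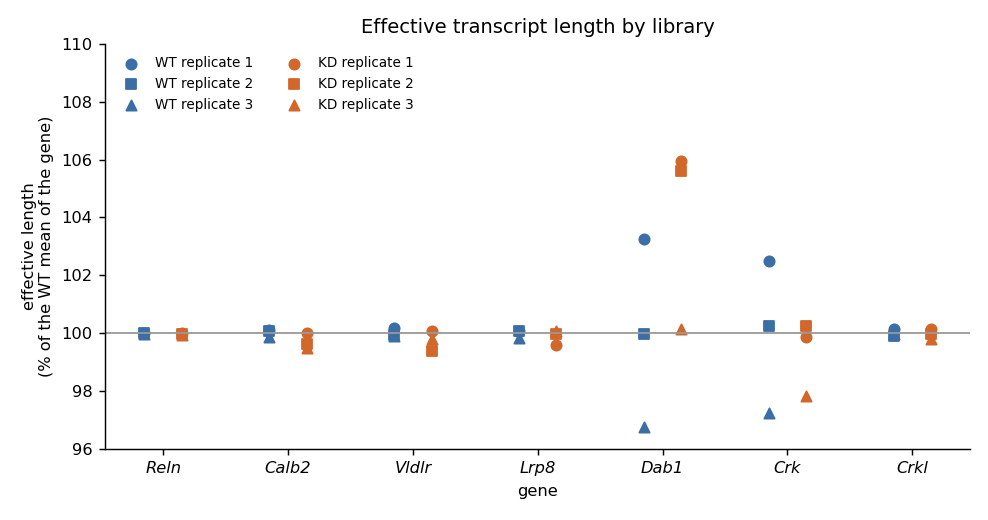
Effective transcript length of 7 genes in each library, in percent of the WT mean of the gene (the y axis does not start at 0), with WT in blue, KD in orange and the replicate number as the symbol. Dab1 and Crk spread over several percent, and Dab1 is longer in KD than in WT for each replicate number, while the other genes stay within a range of 0.801%.

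Ybx1 belongs to the Y-box proteins, which are named after an inverted CCAAT sequence in promoters, so the promoters of the 9 genes were searched for these letters. The RefSeq table (GRCm38.p6) gave 12 promoters for 7 of the 9 genes and none for Calb2 and Lhx5. In the 250 bases before the start, CCAAT or its reverse complement ATTGG was present in 4 of the 12 promoters (33.3%), 1 each of Dab1, Crk, Crkl and Vldlr, and in 33.8% of all 32851 promoters in the table. The 30 bases around each match are shown in the direction of the gene, with the match in capitals, to let the adaptor genes be compared.
Crk, 201 bases before the start (chr11:75679046-75679075): gaccggccgctaCCAATctgtcaaacacgg
Crk, 40 bases before the start (chr11:75679207-75679236): gtttcccttctcCCAATggcgggcgtcggt
Crkl, 97 bases before the start (chr16:17451876-17451905): aacgcactcctgATTGGcagcgcccagtga
Dab1, 178 bases before the start (chr4:103619310-103619339): gagggagtggcaATTGGgtgctgagggtcc
Vldlr, 78 bases before the downstream start (chr19:27216930-27216959): caggcacccgggATTGGaggtgaggacggt

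All 4 of these genes are on the plus strand, and starts are those of RefSeq. Vldlr and Dab1 each have another promoter in the table, with no match, and the Vldlr window shown lies inside the gene span given above, downstream of its first start. The match in Crkl is part of the longer Y-box CTGATTGG, which contains ATTGG and which 3.83% of all promoters hold on either strand over the same 250 bases. The promoters of Lrp8, the gene that passed the threshold in both fits, and of Reln and Trp73 held no match. Whether Ybx1 binds any of these promoters was not tested.

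Of the pathway around the members, proteases that process Reelin, such as Adamts2, Adamts3 and Furin, showed no call among 6 genes (median log2 fold change -0.05), and 1 was higher with the replicate block. That gene, named after its value was seen, was Adamts2, which cleaves Reelin near its N-terminus, at 3.82 CPM in WT against 5.90 CPM in KD (0.63, adjusted P = 0.0503, and 0.00441 with the block).

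Kinases and effectors downstream of Dab1 moved both ways. Of 17 genes, 4 were higher and 2 lower (4 and 4 with the block), with a median of -0.01. Fyn, the main kinase of Dab1, rose from 243 to 299 CPM (log2 fold change 0.30, SE 0.04, adjusted P = 0.00245), and its relative Yes1 rose from 11.3 to 18.6 CPM (0.72, adjusted P = 0.00237), with fractional estimated counts in all libraries. Src, which also phosphorylates Dab1, was at 132 CPM in WT against 118 CPM in KD (-0.16, adjusted P = 0.0724, and 0.0182 with the block), and Lyn, at 4.41 CPM in WT, fell by 0.91 on the log2 scale (adjusted P = 0.0246). The regulatory subunits of phosphoinositide 3-kinase Pik3r3 (101 to 137 CPM, 0.43, adjusted P = 0.00117) and Pik3r1 (156 to 203 CPM, 0.38, adjusted P = 0.0142) were higher. The other lower gene, outside the rule for named genes, was Mapt, which encodes tau.

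Genes of the Crk, Rap1 and adhesion branch showed 4 higher and 0 lower of 12 (5 and 0 with the block), with a median of 0.06. Of all genes tested, 12% were higher and 11.9% lower (18.6% and 18.1% with the block). The SH2 adaptor Nck2, which binds phosphorylated Dab1, rose from 35.5 to 58.8 CPM (0.73, SE 0.10, adjusted P = 0.00163). The integrin subunit gene Itgb1 rose from 82.8 to 134 CPM (0.70, SE 0.05, adjusted P = 1.7e-04). N-cadherin (Cdh2), which Rap1 places at the surface of migrating neurons, rose from 467 to 545 CPM (0.22, adjusted P = 0.0225), and afadin (Afdn), the scaffold of nectins, from 201 to 235 CPM (0.22, adjusted P = 0.0215). Rapgef1, the exchange factor that links Crk to Rap1, was at 224 and 236 CPM (0.08, adjusted P = 0.26).

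Genes that turn over phosphorylated Dab1 or the receptors were split. Of 8 tested, 3 were higher and 2 lower (4 and 2 with the block), with a median of 0.10. Cul5, the scaffold of the ubiquitin ligase for Dab1, rose from 68.5 to 76.1 CPM (0.15, adjusted P = 0.0448), and Socs6 from 26.2 to 33.4 CPM (0.35, adjusted P = 0.00986), whereas Eloc, the elongin C subunit of this ligase, fell from 105 to 81.5 CPM (-0.37, adjusted P = 0.0021). Socs7, the adaptor that brings Dab1 to Cul5, was at 131 and 146 CPM (0.15, adjusted P = 0.0737, and 0.0331 with the block). Mylip, a ligase for lipoprotein receptors, rose from 8.25 to 11.5 CPM (0.48, adjusted P = 0.032), and Cbl fell from 140 to 116 CPM (-0.26, adjusted P = 0.00906).

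Among Dab1 partners and other genes of neuronal migration, 5 of 15 were higher and 3 lower (8 and 5 with the block), with a median of 0.12. The cyclin-dependent kinase Cdk5, which acts in parallel with Reelin, fell from 89.4 to 77.0 CPM (-0.21, adjusted P = 0.0284), and its activator Cdk5r2 fell from 117 to 85.1 CPM (-0.46, adjusted P = 0.00618). The microtubule protein gene Dcx rose from 649.83 to 797 CPM (0.29, adjusted P = 0.00518). The ephrin gene Efnb1 rose (0.35, adjusted P = 0.0145) and Efnb3 fell (-0.38, adjusted P = 0.00974). Pafah1b1, which encodes Lis1, was at 413 and 462 CPM (0.16, adjusted P = 0.0509, and 0.00945 with the block).

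**Figure D5:**
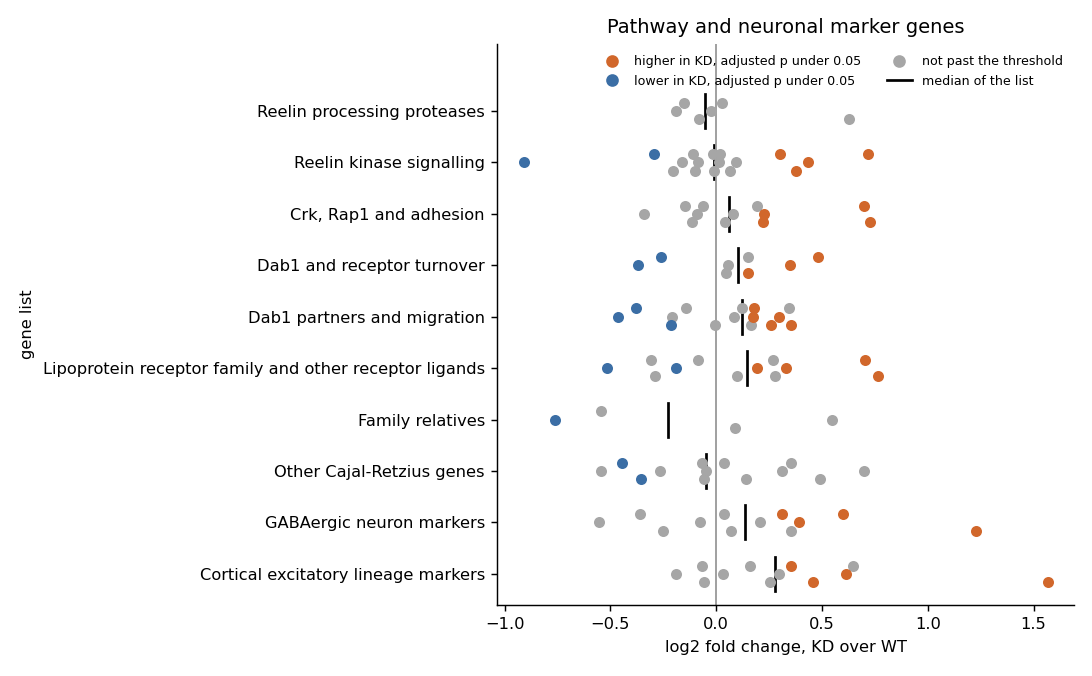
Log2 fold change (x axis) of each tested gene in 10 lists (y axis), with genes past an adjusted P of 0.05 in orange (higher in KD) or blue (lower in KD), other genes in grey and the list median as a black line. The list of the Crk, Rap1 and adhesion branch has 4 orange and 0 blue of 12 genes. The lists of GABAergic and of cortical excitatory markers show the same counts. The list of other Cajal-Retzius genes has 0 orange and 2 blue of 13. With the replicate block, which is not plotted, 5 of these 13 were higher and 3 lower. Of all genes tested, 12% were higher and 11.9% lower in KD.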

How the data were processed

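RNA-seq was made from 3 WT and 3 KD libraries, grouped and numbered by the sample titles, and columns named Ctrl were assigned to the WT title of the same number. Per the labels, the submitters' processing notes name HISAT2 2.2.1, Bowtie2 2.4.5 and RSEM 1.3.1 and the builds GRCm38 and mm10, with no role or order. The authors deposited estimated counts, of which 89.3% to 89.9% per library are whole, TPM scaled by the authors to the same total in each library, and FPKM. The authors' group means (6 columns) were not used. Gene names are those of the deposited table.

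Estimated counts were rounded and analysed in R 4.3.3 by edgeR 4.0.16 (TMM scaling, filterByExpr with a minimum count of 10, quasi-likelihood F-test, two-sided, Benjamini-Hochberg adjustment over 13669 genes, threshold 0.05). The design assumed counts, and the same test was kept for estimated counts. SE was derived from the log2 fold change and its F statistic, and 95% intervals use the same SE. As a check of the code, the fits with and without the block were run on simulated counts that included a shared replicate effect. That simulation assumes the pairing and so cannot test it in these data. Effective length is the count divided by FPKM and by the library total. DESeq2 1.42.0, limma 3.58.1 (voom, and trend on log2(TPM + 1)), 3 other scalings, 2 other filters, the replicate block, the threshold 0.01 and fits without libraries were alternatives. Replicates differed beyond sampling noise (chi-square per degree of freedom of 4.59 to 9.05), so all 6 libraries were counted. The correlation of deviations was 0.178 to 0.351 for the same replicate number in WT and KD and -0.276 to -0.018 for different numbers. What a replicate number stands for is not given in the labels.

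The 9 genes, the lists and the named genes were chosen with earlier results of these data known. Named were the 9 genes, Ybx1, per list at most 4 genes past the threshold with the largest change, 21 genes fixed by symbol, and the 3 genes most like Reln. Of the genes this rule names, 2 are not reported here.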

Additional observations from a re-analysis of the deposited data

How the results depend on the processing

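The precision of Lhx5 is limited by its 27 to 80 estimated counts per library. Over 21 alternatives none of the 9 genes reversed its direction. Reln, Trp73, Vldlr and Crkl passed the threshold in none of them. Fits with the replicate block under another scaling or without 1 pair were chosen after seeing the data. Why the values below moved was not tested, except that fits without libraries and the threshold of 0.01 have less power by construction.

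Of the 9 genes, 1 was higher without the replicate block, and this became 2 with library totals alone or on log2(TPM + 1), 0 at a threshold of 0.01, 0 without the second pair and 0 to 1 when each library was left out in turn. The number lower was 0, and 0 to 1 when each library was left out. Over all genes, 1646 higher and 1631 lower became 629 and 634 at a threshold of 0.01, 135 and 93 without the second pair, and 779 to 1612 and 797 to 1583 when each library was left out. On log2(TPM + 1) 1072 were lower. Calls were 50.2% higher with TMM scaling and 65.9% higher on log2(TPM + 1), where the median log2 fold change of all genes moved to 0.05.

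With the replicate block, 2539 of all genes were higher and 2470 lower. Of the 9 genes 4 were higher and 1 lower with the block under TMM, RLE or library totals, and 2 to 4 were higher and 0 to 1 lower when each pair was left out. With the block under these scalings in turn, the log2 fold change was 0.32, 0.32 and 0.34 for Calb2, -0.61, -0.61 and -0.59 for Lhx5, 0.21, 0.22 and 0.24 for Dab1, and 0.14, 0.15 and 0.17 for Crk. With the block and without replicates 1, 2 and 3 in turn it was 0.29, 0.35 and 0.32 for Calb2, -0.80, -0.75 and -0.34 for Lhx5, 0.23, 0.18 and 0.24 for Dab1, and 0.15, 0.13 and 0.15 for Crk. The block changed no call of the other 5 genes.

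Without the block, Crk stood at 0.17 with library totals and 0.20 on log2(TPM + 1). Lrp8 stood at 0.17 without the second pair. When each library was left out, Lrp8 ranged from 0.18 to 0.29 and Lhx5 from -0.91 to -0.33. With each library left out in turn, the KD minus WT difference in the log2 ratio of Vldlr to Lrp8 ranged from -0.33 to -0.23.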
